A study of Mus musculus with 3 samples.

Results

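*Fos*, *Fosb*, *Jun*, *Junb*, *Egr1*, *Ier2*, *Nr4a1*, *Arc*, *Dusp1* and *Btg2* are immediate early genes (IEGs), chosen here by symbol, and all 10 had a row among the 14933 genes of the raw count table of filtered cells. Their transcripts were counted in single cells sorted for tdTomato from the P5 medial prefrontal cortex (mPFC) of C57Bl6 mice, with 1 library from each *Tbr1* genotype, to ask how loss of *Tbr1* from layer 5 pyramidal neurons alters their transcriptome. The wild-type library came from Rbp4cre::tdTomato mice, the heterozygous library from mice that also carried 1 floxed *Tbr1* allele (Tbr1f/+) and the homozygous library from mice with both alleles floxed (Tbr1f/f). All groups therefore shared the *Rbp4-cre* transgene, which acts in layer 5 pyramidal neurons from around birth, and the Ai14 tdTomato reporter. The deleted exons lie upstream of the 3′ end that the 10X 3′ kit counts, so *Tbr1* counts, at 27.5 (wild-type), 30.7 (heterozygous) and 22.4 (homozygous) UMIs per 1000000 UMIs (CPM) in typical neurons, do not check the genotypes. The number of animals behind each library was not given in the sources used here. Below, values of 3 libraries are given in that order of genotypes.

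IEGs are transcribed within minutes of a stimulus without new protein synthesis, when kinase cascades activate factors such as CREB, SRF and the ELK proteins that already sit at their promoters. In the brain they are best known as markers of recent neuronal activity, but growth factors, cytokines, cell injury and handling of the tissue induce them in most cell types. FOS, FOSB, JUN and JUNB pair to form AP-1 transcription factors. EGR1 and NR4A1 are a zinc finger factor and an orphan nuclear receptor, ARC acts at synapses, DUSP1 is a phosphatase that turns off MAP kinases, BTG2 restrains proliferation, and IER2 is a nuclear protein of the same early response.

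The 17396 filtered cells were divided by the lists of the authors and by marker transcripts. The authors retained 1778, 5357 and 3935 neuronal cells for their comparison (typical neurons) and set apart 304, 107 and 462 others (atypical neurons). The remaining 2873, 1398 and 1182 filtered cells were outside the neuronal list. Of these, cells with at least 3 UMIs (unique molecular identifiers, each a counted transcript) of *C1qa*, *C1qb* and *C1qc* were called microglial (231, 195 and 107 cells). Cells with at least 3 UMIs of *Cldn5*, *Flt1* and *Pecam1* were called endothelial (325, 109 and 146 cells), and cells with at least 3 UMIs of *Slc1a3*, *Aqp4*, *Mfge8* and *Slc1a2* were called astroglial (868, 358 and 247 cells). Of 2475 cells in any class, 111 met the rule of more than 1 class. Across libraries 140 of 17255 barcodes recurred.

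The class names were set beside wider marker lists. Each list includes the genes that define its class, so part of each difference follows from the class rule. The lists were not summed without those genes. The 10 microglial markers summed to 19319, 13965 and 17914 CPM in microglial cells against 79.6, 49.0 and 55.8 CPM in typical neurons. The 10 endothelial markers summed to 21515, 17334 and 26830 CPM in endothelial cells against 419, 221 and 283 CPM in typical neurons. The 10 markers of astrocytes and radial glia separated less, with 14025, 11207 and 14583 CPM in astroglial cells against 8612, 7547 and 8504 CPM in typical neurons. Astroglial cells also held all 7 mural markers, which summed to 955, 465 and 1359 CPM, and all 6 meningeal fibroblast markers, at 577, 270 and 504 CPM. Endothelial cells held 7, 6 and 6 of the mural markers, at 735, 1002 and 287 CPM. The 10 excitatory neuron markers summed to 847, 2052 and 1759 CPM in microglial cells and 1042, 3294 and 2084 CPM in astroglial cells, against 3064, 3731 and 4417 CPM in typical neurons. The groups also differed in depth and mitochondrial share, with a median of 1901, 1743 and 1375 UMIs and 10.4, 15.4 and 12.5% mitochondrial UMIs in typical neurons, against 2885, 2479 and 1855 UMIs and 4.13, 12 and 7.30% in microglial cells.

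The sequences just upstream of several of the IEGs hold the core of the element through which CREB acts, and they are printed for the 4 windows with the most matches to this core. RefSeq windows for GRCm38.p6 were matched for 7 of the 10 genes and not for *Egr1*, *Ier2* and *Arc*. Each sequence is the 250 bases before the RefSeq start, 5′ to 3′ on the strand of the gene, and capitals mark TGACG on either strand (the core of the cAMP response element) and TGACGTCA (the full palindrome, in which TGACG occurs on both strands). They lie at chr12:85473640-85473889 (+) for *Fos*, chr15:101266596-101266845 (+) for *Nr4a1*, chr17:26508473-26508722 (-) for *Dusp1* and chr1:134079156-134079405 (-) for *Btg2*. For *Nr4a1* and *Dusp1* the RefSeq start is that of a transcript inside the GENCODE gene, 12577 and 53656 bases downstream of where the gene begins.
Fos: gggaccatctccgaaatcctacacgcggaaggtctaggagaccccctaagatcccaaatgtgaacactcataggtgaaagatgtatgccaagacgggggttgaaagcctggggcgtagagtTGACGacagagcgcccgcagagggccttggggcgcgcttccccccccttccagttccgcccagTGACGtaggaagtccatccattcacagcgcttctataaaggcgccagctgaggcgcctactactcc
Nr4a1: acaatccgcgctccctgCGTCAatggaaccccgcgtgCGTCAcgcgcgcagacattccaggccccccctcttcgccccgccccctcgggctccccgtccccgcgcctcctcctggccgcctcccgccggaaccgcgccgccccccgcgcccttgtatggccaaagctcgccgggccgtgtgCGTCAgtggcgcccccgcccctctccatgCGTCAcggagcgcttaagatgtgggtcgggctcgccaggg
Dusp1: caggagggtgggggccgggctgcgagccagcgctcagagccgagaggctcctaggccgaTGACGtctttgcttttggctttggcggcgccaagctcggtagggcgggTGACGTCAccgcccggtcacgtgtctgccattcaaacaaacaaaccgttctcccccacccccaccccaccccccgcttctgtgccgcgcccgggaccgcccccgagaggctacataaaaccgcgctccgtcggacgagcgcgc
Btg2: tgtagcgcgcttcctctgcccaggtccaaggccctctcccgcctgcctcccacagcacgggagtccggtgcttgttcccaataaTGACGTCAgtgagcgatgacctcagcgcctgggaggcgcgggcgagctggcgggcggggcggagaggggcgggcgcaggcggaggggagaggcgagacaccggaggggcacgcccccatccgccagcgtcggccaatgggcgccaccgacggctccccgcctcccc
TGACG occurred in 6 of the 7 windows (*Fos*, *Fosb*, *Junb*, *Nr4a1*, *Dusp1* and *Btg2*), against 17.8% of 32851 RefSeq windows of the same length. The *Fos* window holds it 129 and 66 bases before the start, and the *Nr4a1* window holds 4 copies, all on the reverse strand. The palindrome TGACGTCA occurred in the windows of *Dusp1* and *Btg2*, against 1.55% of all windows. The *Fosb* and *Junb* windows, not printed, held TGACG 1 time each, and the *Jun* window held neither. The 7 windows held 58.4 to 74.4% G and C, and the background of all windows was not matched for base composition, whose part was not tested. These are matches of letters, and occupancy was not measured.

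The 10 IEGs together were low in typical neurons and high in every class of the other cells (plot of each gene by cell group). In typical neurons they gave 256, 745 and 412 UMIs, or 69.7, 71.5 and 67.8 CPM. Atypical neurons had 107, 153 and 136 CPM. Microglial cells had 1192, 1091 and 1205 CPM, endothelial cells 859, 1262 and 1086 CPM and astroglial cells 677, 748 and 1059 CPM. The levels of the neuronal groups and of the classes did not overlap in any library. Among the classes the order changed with the library, since microglial cells were highest in the wild-type and homozygous libraries and endothelial cells in the heterozygous library. Other cells in no class lay between, at 372, 253 and 370 CPM. Intervals in this section are exact 95% intervals of the counts and cover counting error only. The 3 libraries are 1 per genotype, so they are not replicates of a genotype.

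**Figure D1:**
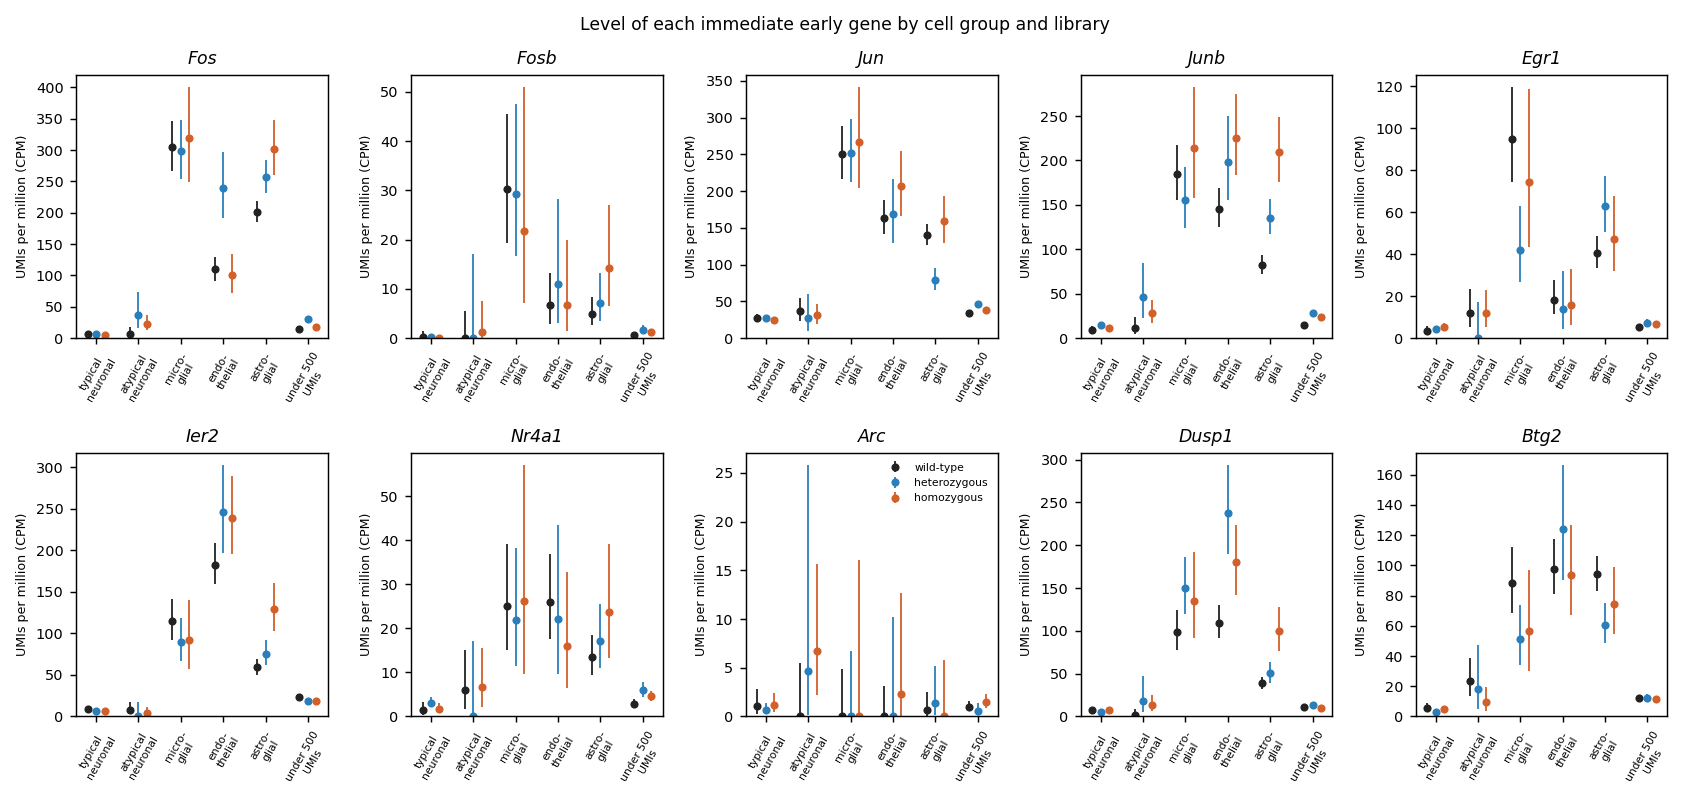
Level of each of the 10 IEGs (y axis, CPM, a separate linear scale per gene) in 5 cell groups and in barcodes with at least 100 and under 500 UMIs (x axis), with 1 point per library coloured by genotype and bars for the exact Poisson 95% interval. For *Fos* all 9 points of the 3 classes lie between 100 and 319 CPM, and the 3 points of typical neurons between 5.43 and 6.24 CPM.

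Among the AP-1 genes, *Fos* (ENSMUSG00000021250; GRCm38 chromosome 12, 85473890 to 85477273, plus strand) had 5.99, 6.24 and 5.43 CPM in typical neurons. It had 305, 298 and 319 CPM in microglial cells, 110, 240 and 100 CPM in endothelial cells and 202, 257 and 302 CPM in astroglial cells. Microglial cells were highest in each library, although in the heterozygous and homozygous libraries the astroglial level lay within the microglial interval (254 to 348 and 250 to 401 CPM). Within a library the fold of microglial cells over typical neurons was 50.8, 47.8 and 58.7. *Fosb* (chromosome 7, 19302696 to 19310051, minus strand) was nearly absent from typical neurons, with 1, 3 and 0 UMIs. In microglial cells it had 30.3, 29.3 and 21.8 CPM, from 23, 16 and 5 UMIs, and it was below 15 CPM in the other 2 classes.

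*Jun* (chromosome 4, 95049034 to 95052222, minus strand) had 27.0, 27.6 and 24.5 CPM in typical neurons, where it gave 38.7, 38.7 and 36.2% of the UMIs of the 10 genes. In microglial cells *Jun* had 251, 253 and 266 CPM and gave 21.0, 23.2 and 22.1% of them. *Fos* gave 8.59, 8.72 and 8.01% of the UMIs of the 10 genes in typical neurons and 29.9, 34.4 and 28.5% in astroglial cells. In endothelial cells it gave 12.8, 19.0 and 9.22%, and only in the heterozygous library did its interval not overlap with that of typical neurons. *Junb* (chromosome 8, 84974484 to 84978718, minus strand) had 9.54, 14.6 and 11.0 CPM in typical neurons. It had 185, 156 and 214 CPM in microglial cells, 146, 199 and 225 CPM in endothelial cells and 82.8, 136 and 210 CPM in astroglial cells. In the heterozygous and homozygous libraries the *Junb* intervals of the 3 classes overlapped.

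Of the other transcription factors, *Egr1* (ENSMUSG00000038418) had 3.27, 4.32 and 5.27 CPM in typical neurons and 95, 42.1 and 74.2 CPM in microglial cells. It was lowest among the classes in endothelial cells, at 18.4, 13.8 and 15.9 CPM, in all 3 libraries. *Nr4a1* (chromosome 15, 101254269 to 101274795, plus strand) had 1.36, 3.07 and 1.65 CPM in typical neurons and between 13.4 and 26.2 CPM in the 3 classes, whose intervals overlapped in each library. *Ier2* (chromosome 8, 84661331 to 84662852, minus strand) had 8.45, 6.81 and 7.08 CPM in typical neurons. It was highest in endothelial cells, at 182, 246 and 239 CPM, above 115, 89.7 and 91.7 CPM in microglial cells and 59.1, 75.7 and 129 CPM in astroglial cells.

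The feedback and growth regulators also had their highest values in endothelial cells in each library, although not apart from microglial cells in all of them. *Dusp1* (chromosome 17, 26505590 to 26562128, minus strand) had 7.08, 4.99 and 7.08 CPM in typical neurons and 110, 237 and 180 CPM in endothelial cells. It had 98.9, 150 and 135 CPM in microglial cells and 38.6, 50.7 and 99.5 CPM in astroglial cells. The microglial and endothelial intervals of *Dusp1* overlapped in the wild-type and homozygous libraries. *Btg2* (chromosome 1, 134075170 to 134079120, minus strand) had 5.72, 2.88 and 4.61 CPM in typical neurons and 97.9, 124 and 93.3 CPM in endothelial cells. Its wild-type levels of 88.4 CPM in microglial and 94.1 CPM in astroglial cells were within the endothelial interval of 81.0 to 117 CPM, so the 3 classes were not told apart there, and its intervals of the 3 classes also overlapped in the homozygous library. *Arc* (chromosome 15, 74669083 to 74672570, minus strand), the member most tied to synapses, stood apart from the other members. It had 4, 7 and 7 UMIs in typical neurons, and no UMI in microglial cells, where 0 UMIs allow up to 3.96, 5.49 and 13.1 CPM (3 UMIs of the total).

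Counted gene by gene, 9 of the 10 IEGs, all but *Arc*, were over 2-fold higher than in typical neurons in all 3 libraries in microglial cells, where 14.5% of all genes were. The same 9 were so in endothelial cells (22.6% of all genes), in astroglial cells (20.3%) and in all cells outside the neuronal list (23.4%). None was over 2-fold lower, against 1.11, 6.72 and 0.288% of all genes in microglial, endothelial and astroglial cells and 0.114% in all cells outside the neuronal list. In atypical neurons only *Btg2* was over 2-fold higher in all 3 libraries, at 23.7, 18.5 and 9.39 CPM from 16, 4 and 7 UMIs (1.36% of all genes were). Its 4 heterozygous UMIs were all in 1 cell, and its homozygous log2 ratio of 1.03 had an interval of -0.41 to 2.26, so the call in 3 libraries is not beyond counting error. *Fos* in atypical neurons was 7.40, 37.0 and 22.8 CPM and likewise did not show 1 direction beyond counting error, as its wild-type log2 ratio of 0.30 had an interval of -1.45 to 1.74. The comparisons share the typical neurons as denominator, and since the authors formed the neuronal groups from all genes of the cells, no test was made.

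The level in typical neurons was also set beside that of barcodes too poor in RNA to be called cells, with at least 100 and under 500 UMIs (44157, 40520 and 55787 barcodes). These barcodes had 121, 163 and 133 CPM of the 10 genes, above typical neurons in all 3 libraries (log2 of typical neurons over barcodes -0.79, -1.19 and -0.98). The count of members whose interval put the barcodes higher was 6, 9 and 8 of 10, and for the rest the interval included no difference. The share of all genes that were higher in the barcodes was not taken. Whether these counts are particular to the IEGs was therefore not tested. *Fos*, for example, had 15.2, 30.2 and 17.6 CPM in the barcodes. *Arc* had 0.934, 0.587 and 1.46 CPM there and 1.09, 0.672 and 1.15 CPM in typical neurons. The CPM of the 10 genes in typical neurons was 57.7, 43.7 and 50.8% of that in the barcodes, and that of *Jun* was 77.6, 59.8 and 63.7%. The 3 microglial class markers had 31.3, 14.6 and 16.5 CPM in typical neurons, which was 32.7, 10.4 and 22.8% of their 95.8, 140 and 72.3 CPM in the barcodes. The 3 endothelial class markers had 64.0, 12.4 and 25.7 CPM, or 23.6, 12.1 and 20.3% of their 271, 102 and 126 CPM. The 4 astroglial class markers, by contrast, had 453, 416 and 439 CPM in typical neurons, or 138, 110 and 132% of the barcodes. The share of the IEGs thus lay above that of the microglial and endothelial sets and below that of the astroglial set in each library. The barcodes can hold fragments of cells as well as free RNA, and how much of the IEG counts of typical neurons was free RNA and how much expression was not tested. Typical neurons without a UMI of any class marker had 64.4, 71.4 and 67.9 CPM of the 10 genes, and those with at least 1 had 72.7, 71.6 and 67.7 CPM. Against the barcodes in place of typical neurons, microglial, endothelial and astroglial cells were still higher, by a mean log2 of 3.07, 2.93 and 2.56.

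A large part of the IEG transcripts of the other cells came from few cells (plot of cells by number of IEGs). To compare shares at 1 depth, each cell was thinned to 1000 UMIs, and no cell was shallower. At least 1 of the 10 genes was then found in 6.92, 6.74 and 6.38% of typical neurons, 35.5, 23.6 and 29.9% of microglial cells, 38.5, 56.0 and 54.8% of endothelial cells and 29.0, 18.2 and 21.5% of astroglial cells. At least 3 of the 10 genes were found in 0, 2 and 0 typical neurons, of 1778, 5357 and 3935. They were found in 8.23, 8.21 and 9.35% of microglial cells, 5.23, 11.0 and 7.53% of endothelial cells and 3.11, 5.31 and 6.07% of astroglial cells. The classes overlapped in this share within their binomial intervals in the heterozygous and homozygous libraries, and none of them overlapped with typical neurons. Without thinning the mean share over the libraries with at least 1 IEG rose from 6.68 to 11.6% in typical neurons and from 49.7 to 73.3% in endothelial cells.

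**Figure D2:**
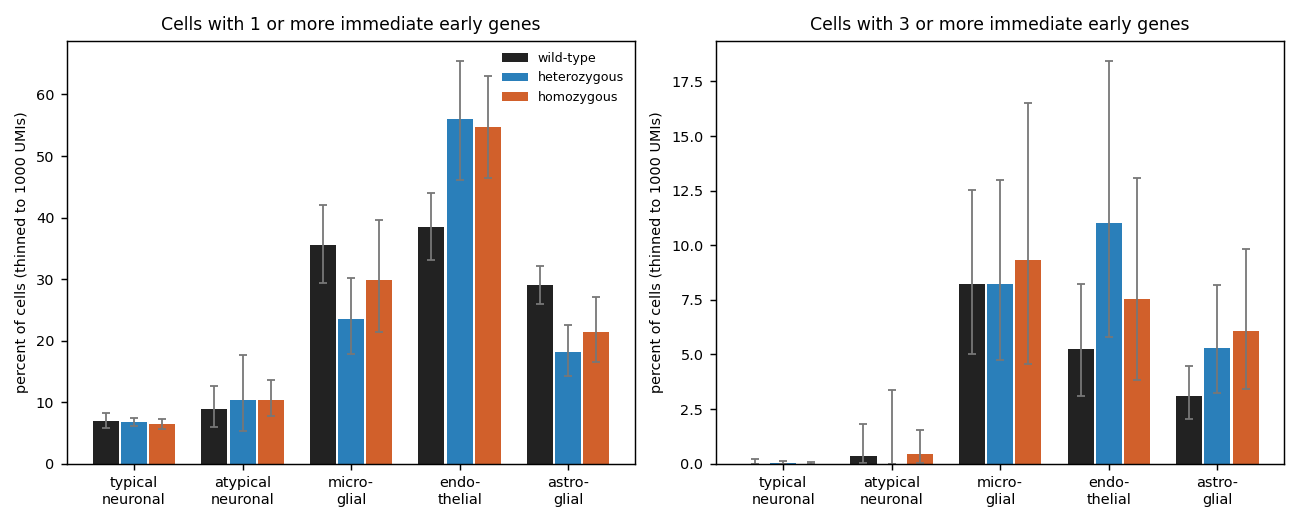
Percent of cells (y axis) with at least 1 (left) and at least 3 (right) of the 10 IEGs after thinning each cell to 1000 UMIs, by cell group (x axis) and library (bars, coloured by genotype), with exact binomial 95% intervals as error bars. In typical neurons at least 3 IEGs were found in at most 0.0373% of cells, whereas the share in the 3 classes was between 3.11 and 11.0%.

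In all, 184 cells outside the neuronal list had at least 3 IEGs after thinning (78, 58 and 48 cells). Of these, 45 were microglial, 40 endothelial and 61 astroglial, and 47 were in no class. They held 61.3, 78.0 and 57.8% of the thinned IEG UMIs of microglial cells, 43.8, 56.8 and 45.7% of those of endothelial cells and 39.5, 73.3 and 69.8% of those of astroglial cells. In cells of no class they held 28.8, 39.3 and 48.1%. The cells were picked by the same thinned counts, so a high share is in part built in, and no other gene set was set beside it. The cut at 3 genes is a choice, with cells on both sides of it. With all classes pooled, 102, 34 and 42 cells had exactly 2 IEGs, 38, 19 and 25 had exactly 3, and 40, 39 and 23 had 4 or more. Whether the cells above the cut form a distinct set was not tested. At full depth *Fos* was found in 91.0% of the wild-type cells with at least 3 IEGs and *Junb* in 82.1%, and a single wild-type endothelial cell held up to 102 UMIs of the 10 genes. *Arc* had no UMI in any of the 184 cells, whose totals were 319858, 194705 and 128955 UMIs. At these totals a level as low as the 1.09, 0.672 and 1.15 CPM of typical neurons could not be told from none.

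Genes that were not used to choose these cells were compared between the cells with at least 3 IEGs and the rest of the cells outside the neuronal list, after the 10 genes were taken out of the totals. The list of 34 other early response genes, which includes *Zfp36* (a protein that destabilises cytokine mRNAs), *Atf3* (a stress-induced factor), *Ier3* and *Socs3* (a brake on cytokine signalling), summed to 4970, 6850 and 6462 CPM in the high cells and 1268, 968 and 1391 CPM in the rest. The fold was 3.92, 7.08 and 4.65. The high cells were above the rest in each of the 3 classes, in cells of no class and in each library (plot of other early response genes). Gene by gene, 26 of the 34 were over 2-fold higher in all 3 libraries, against 4.52% of all genes, and none was over 2-fold lower. *Zfp36* had 91, 61 and 21 UMIs in the high cells against 62, 17 and 17 in the far more numerous rest, a log2 ratio of 5.26, 6.26 and 4.61. *Homer1*, which encodes a synaptic scaffold, had a log2 ratio of -0.37, -0.26 and -0.37, from only 4, 4 and 2 UMIs in the high cells. *Npas4*, another gene of the list, was at 3.57, 2.83 and 3.31 from 5, 1 and 1 UMIs there. None of the 17 upstream kinases and transcription factors, such as *Srf* and *Creb1*, was over 2-fold higher, and *Camk4*, a calcium-dependent kinase, was over 2-fold lower (0.985% of all genes).

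The high cells had more UMIs than the rest, at a median of 3921, 3055 and 2632 against 2463, 2535 and 1741, and a lower mitochondrial share, at 3.81, 5.63 and 4.91% against 4.47, 13.3 and 8.21%. They also differed in class make-up, as 25.5% of the high cells and 55.6% of the rest were in no class, and the gene-by-gene count pools the classes. The part of depth, mitochondrial share and class make-up in that count was not tested. The high cells are single cells of 3 libraries and were chosen by the 10 genes, so the folds are a description.

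**Figure D3:**
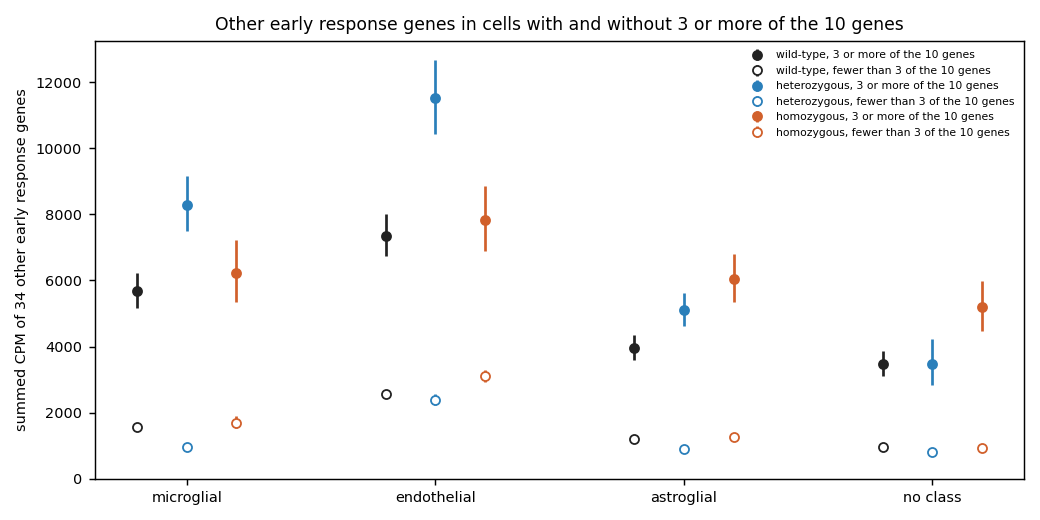
Summed level of 34 other early response genes (y axis, CPM with the 10 IEGs taken out of the totals) in cells with at least 3 of the 10 IEGs (filled) and fewer (open), by class (x axis) and library (colour), with exact Poisson 95% intervals that cover counting error only. In every class and library the filled point lies above the open point, for example at 5673 against 1566 CPM in wild-type microglial cells.

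The 3 classes were compared with each other by edgeR's quasi-likelihood test on summed counts, with the library as a block and p-values adjusted over 7576 genes (Benjamini-Hochberg). Here the 3 libraries serve as the replicates, and since each is another genotype the spread includes any difference of a class contrast between genotypes. Each fold below is a log2 ratio ± SE, and 9 members were tested, as *Arc* had too few UMIs. Cells that met the rule of more than 1 class were left out. The alternatives of this test did not include removal of the cell with the most UMIs of a gene. Among all heterozygous microglial cells, a single cell held 28 of the 82 *Dusp1* UMIs. *Fosb* had values in 8 of the 9 alternatives.

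Between microglial and astroglial cells 5 of the 9 IEGs were higher in microglial cells, against 15.3% of all genes higher, and none was lower, against 17.2%. *Fosb* was higher by 2.14 ± 0.46 (edgeR adjusted p = 0.000365), *Dusp1* by 1.35 ± 0.23 (edgeR adjusted p = 1.53e-05) and *Jun* by 1.26 ± 0.19 (edgeR adjusted p = 2.08e-06), each of them in 3 of 3 libraries. These 3 calls were kept under every alternative run. *Junb* (0.70 ± 0.22, edgeR adjusted p = 0.0111) and *Ier2* (0.63 ± 0.25, edgeR adjusted p = 0.0463) were also called, but without the wild-type library they were 0.25 (edgeR adjusted p = 0.50) and 0.09 (edgeR adjusted p = 0.859). Over all 9 alternatives the call of *Junb* was kept in 6 and that of *Ier2* in 4, and both were lost with DESeq2 and without the library block. *Fos* did not pass the test, at 0.40 ± 0.21 (edgeR adjusted p = 0.159), and passed it without the heterozygous library (0.56, edgeR adjusted p = 0.0315) and with 5 in place of 3 marker UMIs (0.43, edgeR adjusted p = 0.0442). *Egr1*, *Nr4a1* and *Btg2* did not pass, at 0.58, 0.58 and -0.14, and *Egr1* did without the heterozygous library (1.28, edgeR adjusted p = 0.000256).

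In endothelial against astroglial cells 5 of 9 IEGs were higher, against 21.3% of all genes. Another 2 were lower, which is near the 21.8% of all genes that were. *Dusp1* was higher by 1.71 ± 0.22 (edgeR adjusted p = 7.02e-08) and *Ier2* by 1.65 ± 0.22 (edgeR adjusted p = 2.42e-07), and *Egr1* was lower, at -1.53 ± 0.35 (edgeR adjusted p = 0.000609). These 3 calls were kept under every alternative run. *Fos* was lower in endothelial cells, at -0.80 ± 0.22 (edgeR adjusted p = 0.00381), but at -0.48 (edgeR adjusted p = 0.208) without the homozygous library. *Jun* (0.61, edgeR adjusted p = 0.00950), *Junb* (0.56, edgeR adjusted p = 0.0329) and *Btg2* (0.51, edgeR adjusted p = 0.0436) were each lost when 1 library was left out. For *Jun* and *Btg2* this was the heterozygous library (0.39 and 0.26, edgeR adjusted p = 0.109 and 0.361) and for *Junb* the wild-type library (0.30, edgeR adjusted p = 0.338). *Btg2* was also lost without the homozygous library, although its fold was not smaller then (0.57, edgeR adjusted p = 0.113). *Btg2* kept its call in 1 of 9 alternatives, *Junb* in 5, and *Jun* and *Fos* in 7 each.

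In microglial against endothelial cells 4 of 9 were higher, against 16.4% of all genes, and 2 of 9 were lower, near the 18.4% of all genes that were. *Egr1* was higher in microglial cells by 2.12 ± 0.37 (edgeR adjusted p = 2.39e-05), *Fosb* by 1.91 ± 0.53 (edgeR adjusted p = 0.00467) and *Fos* by 1.19 ± 0.23 (edgeR adjusted p = 8.89e-05), each in 3 of 3 libraries. *Ier2* was lower, at -1.01 ± 0.24 (edgeR adjusted p = 0.000938), in 3 of 3 libraries. These 4 calls were kept under every alternative run. *Jun* (0.64, edgeR adjusted p = 0.00923) was lost without the wild-type library (0.56, edgeR adjusted p = 0.0714), and *Btg2* (-0.65, edgeR adjusted p = 0.0331) without the heterozygous (-0.27, edgeR adjusted p = 0.475) or the homozygous library (-0.67, edgeR adjusted p = 0.107), and *Btg2* was called in 2 of 9 alternatives. *Junb*, *Nr4a1* and *Dusp1* did not pass, at 0.14, 0.01 and -0.37. Hemoglobin and other blood markers had 21440, 53067 and 42454 CPM in endothelial cells, against 173, 36.6 and 114 CPM in microglial and 3727, 1424 and 5243 CPM in astroglial cells, and their part in the differences of endothelial cells from either class was not tested.

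**Figure D4:**
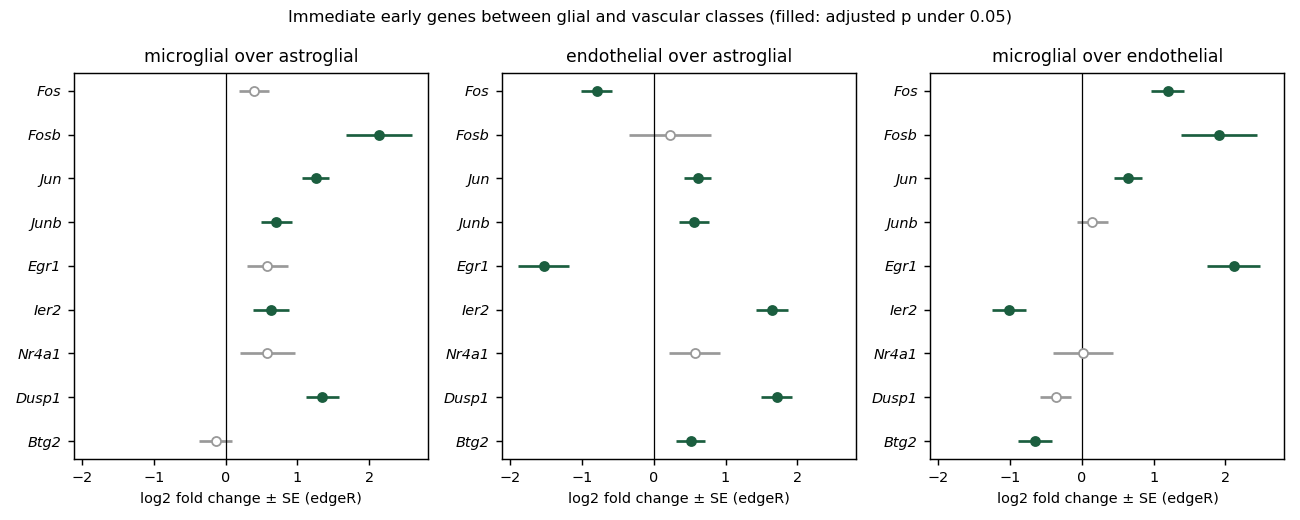
Log2 fold change ± SE (x axis, edgeR) of 9 IEGs (y axis) between microglial and astroglial (left), endothelial and astroglial (middle) and microglial and endothelial cells (right), with filled points where the adjusted p passed the threshold. *Egr1* lies at -1.53 in the middle panel and 2.12 in the right panel, and *Ier2* at 1.65 and -1.01.

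The wider early response was described with the same counts. Against typical neurons 16, 19 and 18 of the 34 other early response genes were over 2-fold higher in all 3 libraries in microglial, endothelial and astroglial cells, and none was lower. These are 47.1, 55.9 and 52.9% of the list, against 14.5, 22.6 and 20.3% of all genes. In microglial cells *Zfp36* had 84.4, 73.2 and 52.4 CPM against at most 0.545 CPM in typical neurons. *Jund*, an AP-1 gene that is expressed without a stimulus, differed far less, with 384, 503 and 668 CPM in microglial cells and 299, 385 and 384 CPM in typical neurons. The upstream list gave 2, 4 and 2 of 17 higher genes, or 11.8, 23.5 and 11.8%, which is near or below those shares of all genes. *Elk3*, an ETS factor that binds beside SRF, was among them in all 3 classes. *Camk2a*, *Camk4* and *Hras* were over 2-fold lower in endothelial cells (6.72% of all genes).

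Between the classes, 22 other early response genes were tested, of which 13 were higher and 4 lower in microglial than in astroglial cells (15.3 and 17.2% of all genes). In endothelial against astroglial cells 14 were higher and 4 lower (21.3 and 21.8% of all genes), and in microglial against endothelial cells 4 were higher and 6 lower (16.4 and 18.4%). The 4 lower genes of the first and of the second comparison and the 4 higher genes of the last are shares near or below those of all genes. *Klf2*, a factor known for its response to blood flow, was higher in endothelial than in astroglial cells by 5.15 ± 0.23 (edgeR adjusted p = 3.83e-18), with 843, 963 and 1068 CPM in endothelial cells. *Zfp36* was higher in microglial than in astroglial cells by 3.10 ± 0.34 (edgeR adjusted p = 4.72e-09). *Gadd45g* and *Socs3* were lower in microglial than in astroglial cells, at -1.96 ± 0.31 (edgeR adjusted p = 4.15e-06) and -1.45 ± 0.40 (edgeR adjusted p = 0.00519). *Egr2*, a relative of *Egr1*, had 36.9, 27.5 and 26.2 CPM in microglial cells and no UMI in endothelial cells, which allows up to 2.51, 8.28 and 6.83 CPM (3 UMIs of the total). Of 13 upstream genes tested, *Elk3* was highest in endothelial cells, by 3.23 ± 0.27 over astroglial cells (edgeR adjusted p = 9.02e-12).

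In typical neurons the 10 IEGs together did not differ between genotypes beyond counting error (plot of genotype ratios). The log2 ratio of their summed CPM was 0.04 (-0.17 to 0.25) for heterozygous and -0.04 (-0.27 to 0.19) for homozygous over wild-type, and both ratios share the wild-type library. Of the members only *Jun* had a mean of at least 20 CPM, with log2 ratios of 0.04 (-0.30 to 0.38) and -0.14 (-0.51 to 0.24), so it was not over 2-fold higher or lower. Of genes at that level 0.352% were over 2-fold higher and 0.399% lower in the heterozygous library, and 0.235% and 0.282% in the homozygous library. *Junb* in the heterozygous library was 0.61 (0.08 to 1.19) and *Btg2* -0.99 (-1.84 to -0.11), the latter from 30 against 21 UMIs. *Nr4a1* was 1.17 (-0.20 to 2.89) from 32 against 5 UMIs, which does not show a difference at this depth. The sum lies below that of the low-UMI barcodes, and with 1 library per genotype there is no replicate check.

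In the other cells, which are outside the neuronal list of the authors, 1 to 3 of the 8 or 9 members with a mean of at least 10 CPM per class were over 2-fold from the wild-type library in 1 of the other libraries. None of them was so in homozygous microglial or endothelial cells or in heterozygous astroglial cells. In microglial cells 1 of 9 was over 2-fold lower in the heterozygous library, which was *Egr1* at -1.17 (-1.92 to -0.48). Among all genes at that level 10.6% were over 2-fold lower, a share close to that of the members. In endothelial cells 2 of 8 were over 2-fold higher in the heterozygous library (4.64% of all genes), *Fos* at 1.13 (0.72 to 1.53) and *Dusp1* at 1.12 (0.71 to 1.52). The summed IEGs were at 0.55 (0.39 to 0.71) there. In endothelial cells the 5 blood markers, all detected, had 21440 CPM in the wild-type and 53067 CPM in the heterozygous library. The 7 mural markers had 735 and 1002 CPM, and the median mitochondrial share was 4.37 and 10.9%. The part of blood, mural and mitochondrial transcripts in these ratios was not tested. In astroglial cells 3 of 8 were over 2-fold higher in the homozygous library (2.17% of all genes), *Junb* at 1.34 (1.02 to 1.66), *Dusp1* at 1.37 (0.90 to 1.83) and *Ier2* at 1.13 (0.73 to 1.52). *Fosb*, below that level, was at 1.52 (0.13 to 2.83) from 9 against 14 UMIs. *Jun* in homozygous astroglial cells was at 0.18 (-0.15 to 0.50). Heterozygous astroglial cells had *Jun* at -0.83 (-1.14 to -0.52), and its ratio of homozygous over heterozygous cells was 1.01 (0.61 to 1.41). These intervals treat UMIs as independent, while single cells held many of them, such as 27 of the 87 *Fos* UMIs of heterozygous endothelial cells and 22 of the 63 *Dusp1* UMIs of homozygous astroglial cells. When the cell with the most UMIs of the gene was left out of the higher library only, which lowers that side alone, *Fos* and *Dusp1* in endothelial cells were 0.62 and 0.89 and *Dusp1* and *Ier2* in astroglial cells 0.76 and 0.95, all under 2-fold. With that cell left out of both libraries, *Fos* in endothelial cells (0.86) and *Dusp1* in astroglial cells (0.84) were under 2-fold. *Dusp1* in endothelial cells (1.04) and *Ier2* in astroglial cells (1.02) were then over it. *Egr1* in microglial cells (-1.03 and -1.38) and *Junb* in astroglial cells (1.08 and 1.21) stayed past 2-fold under both removals. With 5 in place of 3 marker UMIs the astroglial ratios of *Junb*, *Dusp1* and *Ier2* were 0.31, 0.51 and 0.71, so none was over 2-fold, while *Egr1* in microglial and *Fos* and *Dusp1* in endothelial cells were -1.13, 1.12 and 1.16.

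The sum of the 10 genes in astroglial cells was higher in the homozygous library by a log2 of 0.65 (0.52 to 0.77), yet the ratio was 0.022 when astroglial cells were required to hold at least 5 marker UMIs. In the same cells the 10 endothelial markers, 3 of which define the endothelial class, were all detected and summed to 1911, 967 and 3008 CPM, and the 7 mural markers to 955, 465 and 1359 CPM. Both lists were highest in the homozygous library. The 10 excitatory neuron markers summed to 1042, 3294 and 2084 CPM in these cells, highest in the heterozygous library. The part of these 3 lists in the difference was not tested. Library, genotype, handling and cell make-up cannot be told apart with 1 library per genotype.

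**Figure D5:**
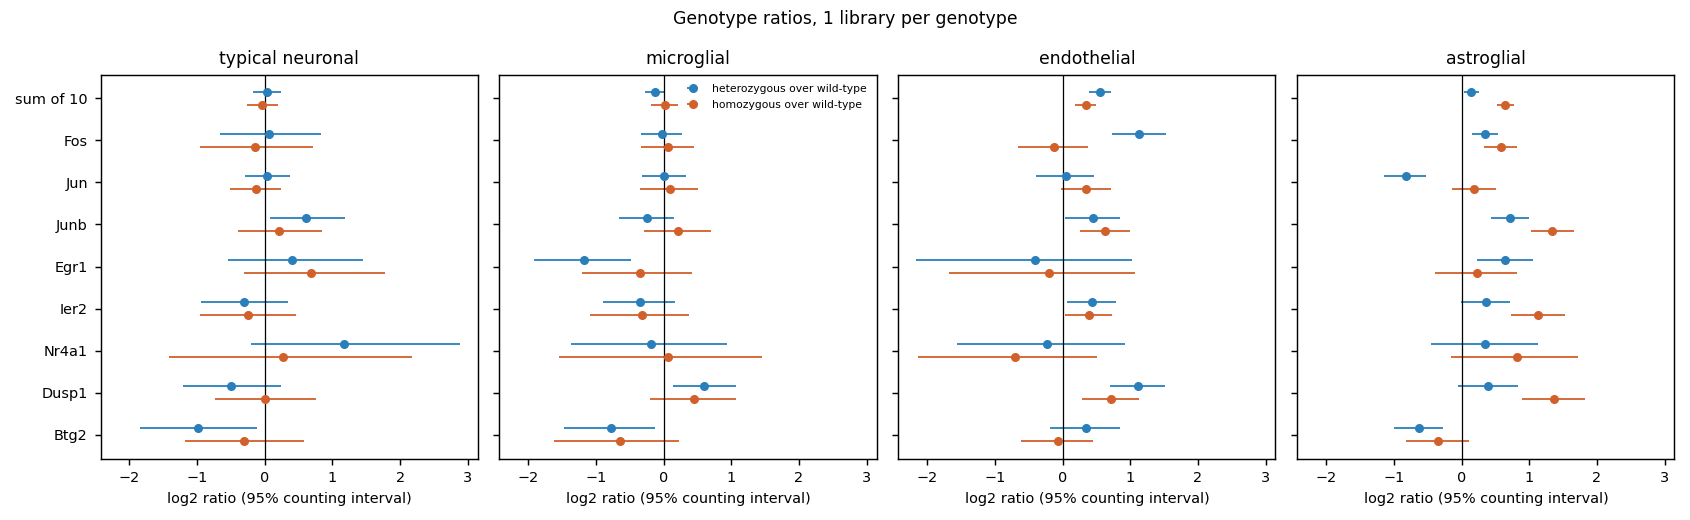
Log2 ratio (x axis) of heterozygous and homozygous over wild-type CPM, for the sum of the 10 IEGs and 8 members (y axis), in typical neurons and 3 classes (panels), with exact 95% intervals that cover counting error only. In typical neurons both sums lie at 0.04 and -0.04, and in astroglial cells the homozygous *Junb*, *Ier2* and *Dusp1* points lie above 1 under the rule of 3 marker UMIs.

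Genes with the most similar pattern were sought by the Pearson correlation of log2 CPM over 15 sums (5 cell groups in 3 libraries) among 5462 genes. The 5 genes most like the sum of the 10 IEGs were *Hspa5* (r = 0.972), *Hsp90b1*, *Rrbp1*, *Bcap31* and *Tm9sf3*. For *Fos* they were *Itm2c* (r = 0.951), *Txndc5*, *Tmed7*, *Tmem33* and *Canx*. The sums share libraries and the split between neuronal and other cells, so these correlations are a description.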

How the data were processed

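The members and gene lists were chosen with earlier results of these data known. The authors aligned and counted reads with Cell Ranger 2.0.1 on mm10 (per the submitters' processing notes), and the deposited tables hold raw UMI counts per gene and cell, without normalization, of cells that passed their limits on mitochondrial share, UMIs and genes. Their lists gave each cell's library and neuronal status, and the member counts of all 17396 cells were identical in the deposited matrices of the same sample. All raw matrices were read for the barcodes with at least 100 and under 500 UMIs. Total counts were 12961996, 14952890 and 9480679 UMIs in the wild-type, heterozygous and homozygous libraries.

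UMIs were summed per library and cell group and divided by the total of all genes (CPM). Sums carry exact Poisson and ratios exact conditional binomial (Clopper-Pearson) 95% intervals, which cover counting error only. Genotypes were not tested, as each had 1 library. A cell group was called over 2-fold higher or lower when this held in all 3 libraries. For a call of higher, a denominator with no UMI was set to 3 UMIs, and for a call of lower, a numerator with none. Other counts under 3 UMIs were left as they were. The 3 classes were compared with edgeR 4.0.16 (TMM factors, filterByExpr, glmQLFit, library block, threshold 0.05) in R 4.3.3, a step that was tested on simulated data. Alternatives were DESeq2 1.42.0, no TMM factors, no filter, no block, 5 marker UMIs, cells of more than 1 class kept, leaving out each library, a denominator without mitochondrial genes, thinning, the mean per cell, removal of the cells with the most UMIs and, chosen after seeing the data, of the cell with the most UMIs of the gene. No doublet caller was run. Named beside the 10 members were the 3 highest and 3 lowest genes of each list, with a few more chosen after their values were seen, and the 5 most similar genes. Other scripts ran in Python 3.11.15. Natural log and scaled tables of the authors were not used.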

Additional observations from a re-analysis of the deposited data

Results flagged for a closer look

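The class order of the summed IEGs changed with the library. The log2 ratio of microglial over endothelial cells was 0.47 in the wild-type library and -0.21 in the heterozygous library, and the difference between the libraries was not tested. *Egr1* moved in opposite directions between the wild-type and heterozygous libraries in 2 classes, with a log2 ratio of heterozygous over wild-type of -1.17 in microglial and 0.64 in astroglial cells, and this difference was not tested either. In microglial cells 10.6% of all genes were over 2-fold lower in the heterozygous library, so a ratio of this size is not particular to *Egr1*.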

How the results depend on the processing

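Of the comparisons with typical neurons, 310 of 369 values under alternatives stayed within 1 standard deviation of the mean log2 ratio. Mean and standard deviation were taken over the 3 libraries, which differ in genotype. The summed log2 ratio of microglial cells, 4.06, was 3.76 when each cell was scaled to 10000 UMIs before averaging, 3.80 after thinning and 4.34 with 5 marker UMIs. That of all cells outside the neuronal list, 3.18, was 2.93 with that scaling and 2.94 after thinning. Against barcodes under 500 UMIs, a denominator chosen after seeing the data, the ratios were 3.07 for microglial, 2.93 for endothelial, 2.56 for astroglial, 2.19 for all other cells and -0.086 for atypical neurons. In typical neurons the homozygous over wild-type ratio was -0.46 from mean raw UMIs per cell, a measure that moves with depth. Without mitochondrial genes the heterozygous ratio was 0.16 in all other cells and 0.28 in astroglial cells. With 5 marker UMIs the heterozygous and homozygous ratios moved from -0.13 and 0.015 to 0.19 and 0.25 in microglial cells and from 0.14 and 0.65 to 0.62 and 0.022 in astroglial cells, and the cause was not tested. Without the cell with the most IEG UMIs in the higher library, a choice made after seeing the data, the heterozygous ratios were 0.38 in endothelial and 0.0076 in astroglial cells and the homozygous ratio was 0.47 in astroglial cells. With that cell left out of both libraries the heterozygous ratios were -0.30 in microglial, 0.52 in endothelial and 0.068 in astroglial cells. The homozygous ratio in astroglial cells was then 0.53. Without thinning the mean share of cells with at least 1 IEG was 11.6% in typical neurons, 17.7% in atypical neurons, 39.5% in other cells, 44.6% in microglial, 73.3% in endothelial and 45.4% in astroglial cells, and with at least 3 it was 0.0958, 0.565, 8.10, 15.8, 22.7 and 10.2% in that order. Genes called between microglial and astroglial cells ranged from 1638 to 2550 when 1 library was left out, against 2467 in all libraries. The lowest count was without the wild-type library (6449 genes tested in place of 7576), and the cause was not tested. In the tests between classes 18 comparisons of single members were called, and of their 160 values under alternatives 128 kept the call and 32 lost it, while 3 of 80 values of the 9 comparisons not called gained one. The calls lost most often were those of *Btg2*, kept in 1 of 9 alternatives between endothelial and astroglial cells and in 2 of 9 between microglial and endothelial cells, and of *Ier2*, kept in 4 of 9 between microglial and astroglial cells.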
